A study of Mus musculus with 2 samples.

Results

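The mouse mitochondrial genome carries 37 annotated genes, all with symbols that start with mt-, and they were selected by that symbol from the 43346 genes of the deposited tables. By class they were 13 messenger RNA (mRNA) genes, 2 ribosomal RNA (rRNA) genes and 22 transfer RNA (tRNA) genes. The study measured total RNA from limb tissue of B6NCrl mouse embryos at embryonic day 11.5, in 1 group with no treatment and no genetic change named in the labels. Replicate 1 was a pool of limbs from 109 embryos and replicate 2 from 88, and both pools were of mixed sex. Only RNA above 200 nt entered the libraries, 10 ng for each, and spike-in RNAs of known identity were added. As there was 1 group, no condition was contrasted, and spread over the pools is given as SD (n = 2).

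Replicates 1 and 2 had 40.6 M and 32.3 M reads counted on genes, and spike-ins held a further 5.37% and 7.92% of all counts. Limb mesenchyme markers such as Prrx1 and Msx1 were present, 12 of 12 at 1 TPM or more in both libraries, with summed levels of 909 and 875 TPM (a level scaled by transcript length and library total). Markers of blood cells were also present: all 8 erythroid markers reached 1 TPM, with summed levels of 14583 and 12782 TPM. Skeletal muscle markers summed to 211 and 185 TPM (7 of 8 at 1 TPM), and cardiomyocyte markers to 21.1 and 12.5 TPM (4 of 8), where the heart regulator Nkx2-5 had 0 and 4 counts. The total to which TPM is scaled includes spike-ins, which held 11.8% of it in replicate 1 and 17.2% in replicate 2. TPM values, their SDs and comparisons of TPM between libraries therefore carry that difference as well as the spread between pools. The tissue is a mixture, so fewer cells of a type and less RNA per cell cannot be told apart, and the part of red blood cells or muscle in the mitochondrial levels was not tested.

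Mitochondrial DNA is a small circle that encodes core subunits of the respiratory chain and of ATP synthase, together with the rRNAs and tRNAs that translate them inside the organelle. Both strands are transcribed as long precursors, and tRNAs that lie between the other genes are cut out to free the mRNAs and rRNAs. The strands are named heavy and light for their base composition, and most genes use the heavy strand as template. Pieces of this genome have also been inserted into nuclear chromosomes over evolution, and some of these insertions are annotated as pseudogenes.

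Nuclear copies decide which reads a mitochondrial gene can be credited with, so the sequences that separate gene from copy are shown first (GENCODE M21 transcripts, GRCm38, each written 5′ to 3′ along the transcript). The last bases of 4 mRNAs are set above the same bases of their copies on chromosome 1. Capitals mark the only bases of the gene that the copy lacks.
mt-Co2 (chrM:7657-7696, plus strand): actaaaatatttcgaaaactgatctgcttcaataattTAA
Gm28661 (chr1:24614885-24614921, minus strand): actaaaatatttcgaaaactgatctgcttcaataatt
mt-Atp6 (chrM:8568-8607, plus strand): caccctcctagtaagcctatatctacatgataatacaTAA
Gm10925 (chr1:24613974-24614010, minus strand): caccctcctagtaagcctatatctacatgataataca
mt-Co3 (chrM:9351-9390, plus strand): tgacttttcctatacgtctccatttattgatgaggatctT
Gm28437 (chr1:24613189-24613227, minus strand): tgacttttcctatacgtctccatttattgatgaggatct
mt-Nd4l (chrM:10134-10173, plus strand): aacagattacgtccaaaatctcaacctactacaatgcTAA
Gm10222 (chr1:24612407-24612443, minus strand): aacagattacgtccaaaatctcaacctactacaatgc

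In the next 2 pairs a substitution separates gene and copy, and in the third, with a copy on chromosome 2, several do. Capitals mark bases that differ. Counted from 1 at the first base of the mitochondrial gene, the change from mt-Nd3 to Gm28438 is T3C and that from mt-Co1 to Gm29216 is A1066T, each the only substitution of its pair.
mt-Nd3 (chrM:9459-9518, plus strand): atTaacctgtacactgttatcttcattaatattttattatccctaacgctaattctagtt
Gm28438 (chr1:24613060-24613119, minus strand): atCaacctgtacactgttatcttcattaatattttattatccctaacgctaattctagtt
mt-Co1 (chrM:6390-6449, plus strand): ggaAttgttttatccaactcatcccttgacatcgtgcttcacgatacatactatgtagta
Gm29216 (chr1:24616129-24616188, minus strand): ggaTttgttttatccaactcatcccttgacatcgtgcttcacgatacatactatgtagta
mt-Co1 (chrM:5772-5861, plus strand): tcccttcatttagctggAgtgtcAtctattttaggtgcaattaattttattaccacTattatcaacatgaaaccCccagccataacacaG
Gm13340 (chr2:22589114-22589203, minus strand): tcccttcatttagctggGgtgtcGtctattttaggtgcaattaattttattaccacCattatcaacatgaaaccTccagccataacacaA

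The 15 mRNA and rRNA genes had counts in both libraries and all 22 tRNA genes had 0. The mitochondrial genes together held 1.23% of gene counts in each library (mean 1.23% ± 0.000802, SD, n = 2), with 95% Wilson intervals of 1.22% to 1.23% for either replicate. Of gene counts, mRNA genes held 0.984% and 0.998% and rRNA genes 0.242% and 0.227% in replicates 1 and 2. Intervals here account for counting error alone, as the reads carried no molecular identifiers that would make them independent molecules. They also take the deposited division of reads between genes and nuclear copies as known. That division was uncertain: the deposited posterior SD of the mt-Co3 count alone was 28392 and 24200 in replicates 1 and 2. The share was not computed from posterior mean counts. Nuclear copies of mitochondrial genes held a further 0.441% and 0.450%, so that genes and copies together took 1.67% and 1.68%.

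The rRNAs form the core of the mitochondrial ribosome. mt-Rnr2, the rRNA of its large subunit (ENSMUSG00000064339, chrM:1094-2675), stood at 1996 TPM in replicate 1 and 1813 in replicate 2, from 83373 and 62916 counts. mt-Rnr1, the rRNA of the small subunit (ENSMUSG00000064337, chrM:70-1024), stood at 622 and 524 TPM, from 14996 and 10501 counts. The large-subunit rRNA was above the small-subunit rRNA in each library, and neither shared any read-length stretch with an annotated nuclear copy. Both were above 500 TPM, and yet neither led the genome. By mean TPM among mitochondrial genes, mt-Rnr2 ranked 5 and mt-Rnr1 ranked 10. The median mRNA was below the mean rRNA level, at 0.795 of it in replicate 1 and 0.959 in replicate 2 (mean 0.877 ± 0.116, SD, n = 2). The mean ratio lay above 1 under other estimates: it was 1.22 with posterior mean TPM, and 1.60 with copy counts added to the mRNAs, an alternative chosen after seeing the data. These ratios describe the libraries and not the tissue, as any effect of library preparation on the level of rRNA was not tested.

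The tRNA genes could not be measured with these tables. They are 59 to 75 nt long, below the 200 nt size selection and below the read length of 100 bases implied by the effective lengths, which are the annotated length minus 99. Each had an effective length of 0 and a count of 0 in both libraries, so these zeros say nothing about tRNA levels. The shortest tRNA, mt-Ts2 for serine, shows the scale, since its whole gene is shorter than a read.
mt-Ts2 (chrM:11613-11671, plus strand): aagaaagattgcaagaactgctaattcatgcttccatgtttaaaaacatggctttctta

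Subunits of ATP synthase were the highest mRNAs as deposited. mt-Atp6, which encodes a subunit of the proton channel (ENSMUSG00000064357, chrM:7927-8607), stood at 5294 and 4966 TPM in replicates 1 and 2. mt-Atp8, a small subunit of the same complex (ENSMUSG00000064356, chrM:7766-7969), stood at 4615 and 4531 TPM. The genes are neighbours on 1 transcript and overlap by 43 bases, shown in capitals in the stretch that joins them. The overlap is shorter than a read of 100 bases, and mt-Atp8 and mt-Atp6 had 0 read positions in common.
mt-Atp8/mt-Atp6 (chrM:7907-7989, plus strand): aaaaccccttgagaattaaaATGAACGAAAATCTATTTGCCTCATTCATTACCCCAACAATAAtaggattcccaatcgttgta

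Cytochrome c oxidase, or complex IV, has 3 mitochondrial subunits, which form its catalytic core. mt-Co1 (ENSMUSG00000064351, chrM:5328-6872) was at 1446 and 1568 TPM, and mt-Co2 (ENSMUSG00000064354, chrM:7013-7696) at 1040 and 1121 TPM. mt-Co3 (ENSMUSG00000064358, chrM:8607-9390) was at 1447 and 1212 TPM. All 3 share reads with copies on chromosome 1, and their levels with copies are given after the copies are described. mt-Cytb, the mitochondrial subunit of complex III, which passes electrons to cytochrome c (ENSMUSG00000064370, chrM:14145-15288), stood at 2377 and 2344 TPM and shared no read-length stretch with an annotated copy.

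Complex I, the entry point of electrons from NADH, has 7 mitochondrial subunits, and their mRNAs covered the widest range. mt-Nd1 (ENSMUSG00000064341, chrM:2751-3707) was the highest at 2178 and 2041 TPM, followed by mt-Nd4 (ENSMUSG00000064363, chrM:10167-11544) at 991 and 919 TPM. mt-Nd2 (ENSMUSG00000064345, chrM:3914-4951) was at 573 and 561 TPM, and mt-Nd5 (ENSMUSG00000064367, chrM:11742-13565) at 330 and 316 TPM. These 4 mRNAs kept their order in each library. mt-Nd3 (ENSMUSG00000064360, chrM:9459-9806) was at 266 and 220 TPM, below mt-Nd5 in each library. mt-Nd4l (ENSMUSG00000065947, chrM:9877-10173), which lies ahead of mt-Nd4 on a shared transcript and overlaps it by 7 bases, was lowest of the mRNAs at 14.97 and 55.4 TPM, from 83.5 and 257 counts.

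In the order of mean levels, 12 of the 14 pairs of neighbours were apart in the sense that both values of the higher gene lay above both values of the lower. The exceptions were mt-Co1 (1507 ± 86.6 TPM, SD, n = 2) beside mt-Co3 (1329 ± 166) and mt-Rnr1 (573 ± 69.0) beside mt-Nd2 (567 ± 8.56). Among all genes of the tables, mt-Atp6 ranked 6 by mean TPM (5130.2 ± 232), mt-Atp8 9 (4573 ± 59.8), mt-Cytb 25 (2361 ± 23.5), mt-Nd1 31 (2109 ± 97.1) and mt-Rnr2 35 (1905 ± 129). The order rests on the deposited split of reads between genes and copies, and with copies added it changed at the top. It also changed by posterior mean TPM, where mt-Atp8 (4472 ± 71.1, SD, n = 2) stood above mt-Atp6 (4452 ± 191). On that scale mt-Co3 was at 2338 ± 90.8, beside mt-Cytb at 2308 ± 29.5.

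**Figure D1:**
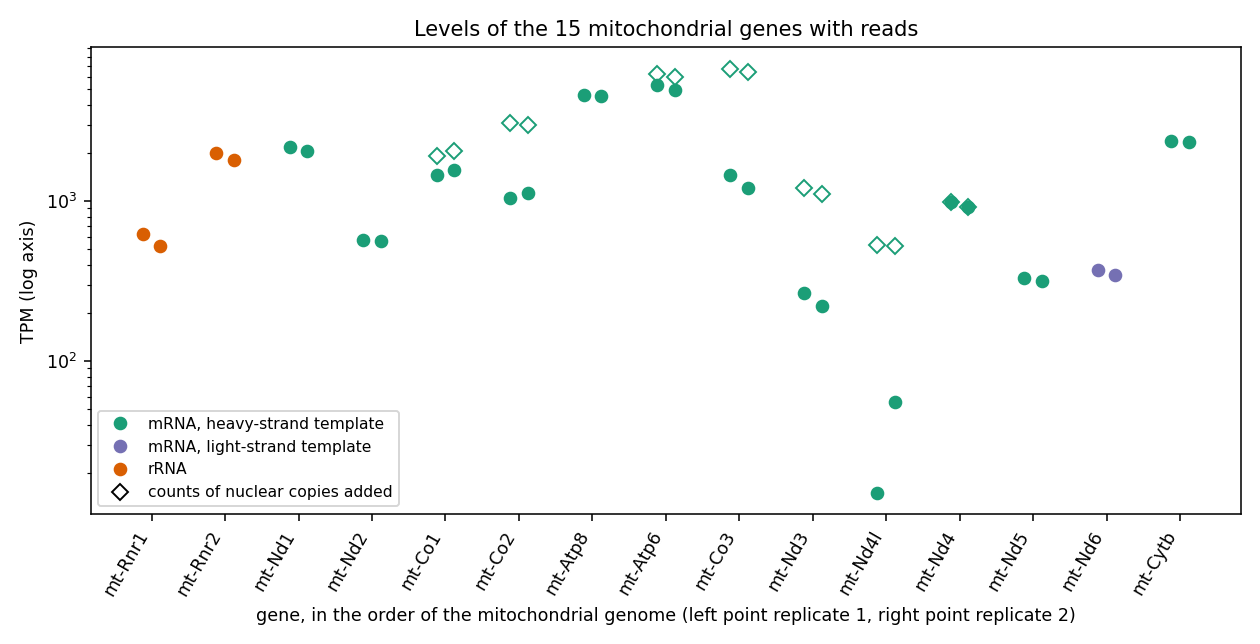
Level of each of the 15 mitochondrial genes with reads (TPM, log axis), in the order of the genome, with replicate 1 as the left and replicate 2 as the right point of each gene. Filled circles are deposited TPM, coloured by class and template strand, and open diamonds add the counts of nuclear copies; mt-Co3 moves from 1447 and 1212 TPM to the highest place at 6727 and 6406 TPM.

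By template strand, 28 genes use the heavy strand (12 mRNAs, both rRNAs and 14 tRNAs) and 9 use the light strand (mt-Nd6 and 8 tRNAs). mt-Nd6, a membrane subunit of complex I (ENSMUSG00000064368, chrM:13552-14070, minus strand), was therefore the only light-strand gene with counts, 4368 and 3379. Its level was 369 and 344 TPM, or 0.297 and 0.295 of the median heavy-strand mRNA in replicates 1 and 2 (mean 0.296 ± 0.00159, SD, n = 2). It was below 9 of the 12 heavy-strand mRNAs as deposited and above mt-Nd5, mt-Nd3 and mt-Nd4l in each library. The ratio was 0.232 with posterior mean TPM. With copies added it was 0.174, as the median of the heavy-strand mRNAs moved from 1205 to 2045 TPM. With 1 gene on the strand, a difference between strands cannot be told apart from one between genes.

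The base composition of mt-Nd6 was the reverse of that of the other mRNAs. Guanine made up 28.1% of its bases against 5.88% to 16.1% in the 12 heavy-strand mRNAs (median 11.0%). Cytosine made up 5.97% against 22.1% to 29.97% (median 26.0%). The sources used here do not say whether counting used the strand, so antisense RNA over mt-Nd6 cannot be told from mt-Nd6 itself. Its overlap with mt-Nd5 is 14 bases, and these genes had 0 read positions in common.

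Among annotated transcripts, 17 nuclear pseudogenes matched a mitochondrial gene at 90% identity or more over at least 100 bases, and 15 of them were in the gene tables. The other 2 were not analysed here. The closest lay in 1 block on chromosome 1 (chr1:24611535-24616197, 4663 bases, minus strand), where 7 pseudogenes follow the order of the mitochondrial stretch chrM:6390-11042 (4653 bases). They match mt-Co1 in part (Gm29216), mt-Co2 (Gm28661), mt-Atp6 (Gm10925), mt-Co3 (Gm28437), mt-Nd3 (Gm28438), mt-Nd4l (Gm10222) and the first 876 bases of mt-Nd4 (Gm28439). Identity over the matched bases was 100% for 5 of the 7, 99.7% for Gm28438 and 99.8% for Gm29216. A block on chromosome 2 was more diverged: Gm13340 differed from mt-Co1 by 37 substitutions (97.6% identity) and Gm13341 from mt-Co2 by 16 (95.9%).

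Gene and copy could hardly be separated by any read of 100 bases for 5 mRNAs. Only 1 of the 685 read positions of mt-Co3 held a base that Gm28437 lacks. The numbers were 3 of 585 for mt-Co2, 3 of 582 for mt-Atp6, 3 of 198 for mt-Nd4l and 6 of 249 for mt-Nd3. These few positions are those that reach the capitals in the sequences above, and for mt-Nd3 also the last 3 bases, which its copy lacks too. By contrast 1000 of 1446 positions of mt-Co1, 502 of 1279 of mt-Nd4 and 909 of 939 of mt-Nd2 were in no copy, and 7 genes (both rRNAs, mt-Nd1, mt-Atp8, mt-Nd5, mt-Nd6 and mt-Cytb) shared none. This holds for annotated transcripts alone: mt-Atp8 lies inside the mitochondrial stretch that the chromosome 1 block matches, no annotated pseudogene there matched it, and the unannotated parts of the block were not analysed here.

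The deposited tables gave these copies high levels. Gm28437, the copy of mt-Co3, held 101871 and 83239 counts in replicates 1 and 2 against 27915 and 19415 on mt-Co3 itself. At 5288 and 5202 TPM it ranked 4 among all genes by mean TPM. The posterior mean TPM of Gm28437 was lower, at 4195 and 3983, so the rank rests on the deposited division of reads. The copy of mt-Co2, Gm28661, stood at 2043 and 1886 TPM, and Gm29216 at 1729 and 1761 TPM, above mt-Co1. Gm28438 was at 956 and 895 TPM, Gm10925 at 933 and 958 TPM, and Gm10222 at 524 and 477 TPM. These 6 copies held 99.98% and 99.97% of all counts on copies, while 5 of the 15 copies had 0 counts in both libraries.

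The copies' share of a gene's reads ranged from nearly none to nearly all. It was 78.5% and 81.1% for mt-Co3, 78.0% and 80.0% for mt-Nd3, and 97.2% and 89.5% for mt-Nd4l. It was 66.2% and 62.6% for mt-Co2, 24.6% and 23.4% for mt-Co1, and 14.9% and 16.1% for mt-Atp6. Copies of equal identity received unequal shares as deposited. Gm10925 and Gm28437 each match their genes at 100%, and the share of Gm28437 was the higher. Both divisions were uncertain. The authors' TPM bounds ran from 1516 to 5762 and from 1556 to 5528 for Gm28437 in replicates 1 and 2. For Gm10925 they ran from 262 to 2578 and from 419 to 2476. Gm28439, whose 777 read positions all lie in mt-Nd4 as well, received 7.92 and 4.22 counts beside 35698 and 27491 on mt-Nd4 (0.0222% and 0.0153%). In all, copies held 26.4% and 26.9% of the counts of genes plus copies (mean 26.7% ± 0.304, SD, n = 2). That share rests on expected counts, and it was not computed from posterior mean counts, which differed in both directions. For Gm28437 the posterior mean counts were lower than the expected counts, at 82486 and 65316. For Gm10925 they were higher, at 25248 and 20375 beside expected counts of 15215 and 12981.

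**Figure D2:**
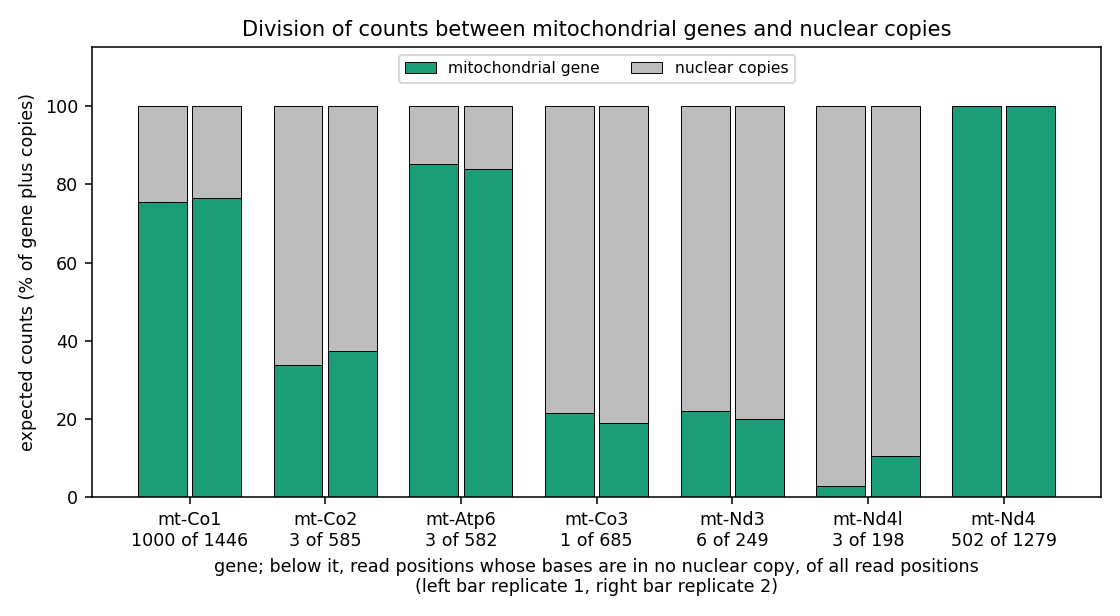
Share of expected counts (% of gene plus copies) on the mitochondrial gene and on its nuclear copies for the 7 genes whose copies had counts, with replicate 1 as the left and replicate 2 as the right bar. Below each gene stand the read positions of 100 bases that are in no copy: mt-Co3, with 1 of 685, leaves 78.5% and 81.1% on its copy, and mt-Atp6, with 3 of 582, leaves 14.9% and 16.1%.

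The counts of a gene and its copies were fractional when taken apart and whole when summed. In 14 of 14 sums (7 genes in 2 libraries) the total was a whole number within 0.02, for example 129786 and 102654 for mt-Co3 with Gm28437 and 2961 and 2434 for mt-Nd4l with Gm10222. Each gene and its copies thus form a closed set whose reads were divided by estimate. The sum does not depend on that division, though it counts any read that a nuclear copy itself produced.

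Summed with copies and divided by the gene's own effective length, mt-Co3 became the highest mitochondrial gene at 6727 and 6406 TPM (6567 ± 227, SD, n = 2). mt-Atp6 was next at 6071 ± 214 TPM, then mt-Atp8 at 4573 ± 59.8, mt-Co2 at 3036 ± 53.1 and mt-Cytb at 2361 ± 23.5. mt-Nd3 moved to 1157 ± 74.5 TPM, above mt-Nd4 at 955 ± 51.1, and mt-Nd4l to 528 ± 3.90, above mt-Nd6 and mt-Nd5. In this order 3 of 14 pairs of neighbours overlapped between libraries: mt-Nd1 and mt-Co1, mt-Co1 and mt-Rnr2 (1982 ± 92.8 and 1905 ± 129 TPM), and mt-Rnr1 and mt-Nd2. The choice to sum was made after seeing the data.

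The authors' TPM bounds showed the same division as uncertainty for 5 mRNAs. The sources used here do not give the level of the bounds. The bounds do not measure the division of reads alone. Those of mt-Nd6, which shared no read position with an annotated copy, were 5.93% and 6.75% of the posterior mean wide. For mt-Co3 the bounds ran from 834 to 5068 TPM in replicate 1 and from 733 to 4693 in replicate 2, a width of 176% and 174% of the posterior mean. Genes of like count (within 1.5 times) had a median width of 2.88% and 3.43%. For mt-Co2 the bounds ran from 830 to 2437 and from 884 to 2534 TPM (105% and 107% wide), and for mt-Atp6 from 3534 to 5852 and from 3314 to 5368 TPM (50.5% and 47.6%). For mt-Nd3 the widths were 54.0% and 78.6% and for mt-Nd4l 221% and 185%, where genes of like count had 10.9% and 13.2%, and 47.8% and 28.9%.

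The other 10 mitochondrial genes had bounds 1.36% to 6.75% wide. Among them mt-Co1 shared 446 of 1446 read positions with copies, and its bounds were 1.82% and 1.92% wide. mt-Nd4 shared 777 of 1279, with widths of 2.08% and 2.38%. The copy Gm29216 was narrow as well, at 3.86% and 4.22%, so shared positions did not always widen the bounds. Over all 15 mitochondrial genes the median width was 3.20% and 3.70%, beside 15.2% and 16.9% over 13542 other genes of at least 1 TPM in both libraries, most of which have fewer counts. The posterior SD of the count exceeded 10% of its mean in 5 of the 15 mitochondrial genes in each library. Among other genes of at least 1 TPM this held for 3.30% and 3.59%, and among the 6689 with at least 1000 counts in each library for 5, or 0.0747%. In each library these 5 other genes, which leave out the nuclear copies, included the near-identical signal recognition particle RNA genes Rn7s1 and Rn7s2, named after their values were seen.

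Posterior SDs of gene and copy mirrored each other. For mt-Co3 and Gm28437 the SD of the count was 28392 in replicate 1 and 24200 in replicate 2 in both gene and copy, the largest of all genes in each library. For mt-Atp6 and Gm10925 it was 13326 and 10665, and for mt-Co2 and Gm28661 9498 and 8338. By contrast the SD was 0 for 7 of the 15 genes, the same 7 that share no read position with a copy, as it was for 67.0% and 67.1% of other genes. The bounds held the deposited TPM for 6 of the 15 genes in each library: mt-Co2, mt-Atp6, mt-Co3, mt-Nd3, mt-Nd4l and mt-Nd6. This was so for 95.7% and 94.7% of other genes, and for 93.1% and 91.8% of those with at least 1000 counts in each library. The first 5 named are the genes with wide bounds, and all genes that missed had narrow bounds. mt-Rnr2 in replicate 1, for instance, had bounds of 1942 to 1969 around a posterior mean of 1956 TPM, below its deposited 1996 TPM.

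**Figure D3:**
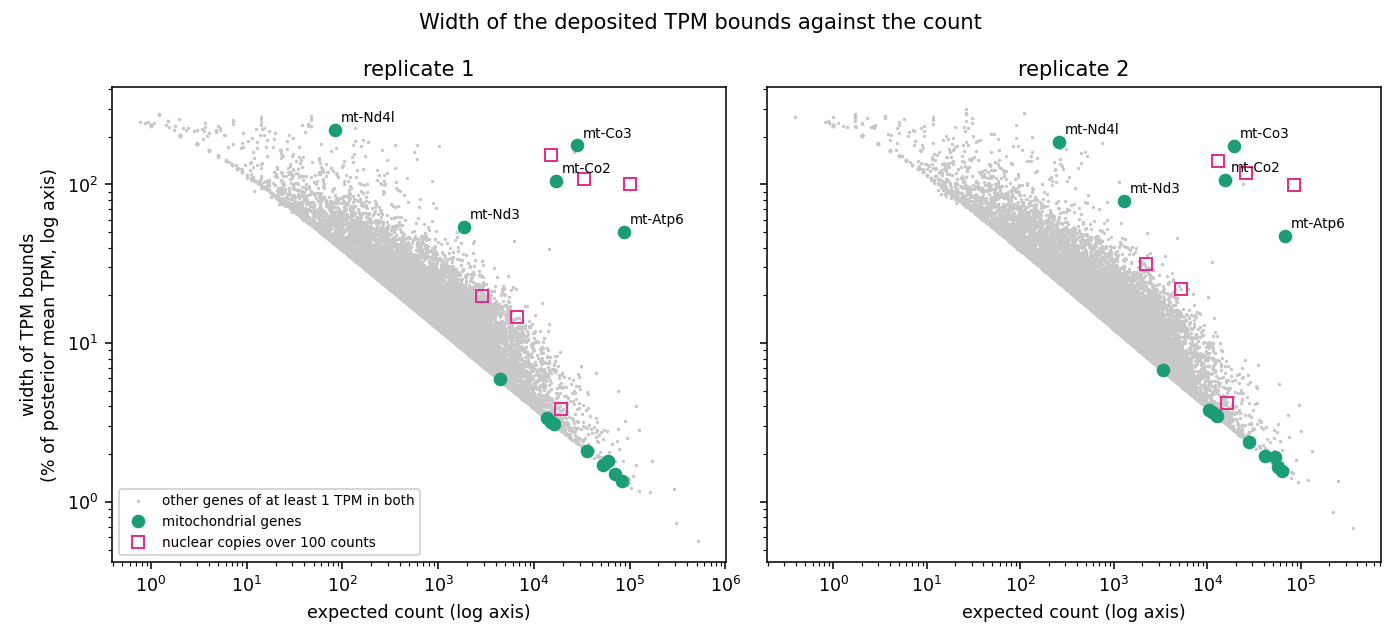
Width of the deposited TPM bounds (% of the posterior mean TPM, log axis) against the expected count (log axis) in replicates 1 and 2. Filled circles are mitochondrial genes, open squares nuclear copies with over 100 counts and grey points other genes of at least 1 TPM in both libraries; the named genes lie far above the band of other genes, with mt-Co3 at 176% and 174%.

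Between the pools, mitochondrial levels differed little. Log2 ratios are replicate 2 over replicate 1, from counts scaled by TMM, and 1 library stands on each side, so no p-value is given and the ratios compare libraries. Of the 15 genes tested, 1 was at least 1 in size, beside 4.44% of all 16787 genes tested. By direction this was 1 of 15 higher in replicate 2 (2.16% of all genes) and 0 of 15 lower (2.29%). The gene was mt-Nd4l, with a log2 ratio of 1.94 and a counting interval of 1.58 to 2.32.

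The mt-Nd4l ratio was near 0 once gene and copy were summed. Its copy took 97.2% of the shared reads in replicate 1 and 89.5% in replicate 2, and the ratio of the sum was 0.03 (interval -0.04 to 0.11). The deposited TPM bounds of mt-Nd4l, 1.11 to 83.2 in replicate 1 and 10.4 to 145 in replicate 2, also overlapped.

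The other 14 genes had at least 1000 counts in each library and ratios from -0.22 to 0.17. In that range of counts 0 of 6709 genes were past 1 in size. mt-Nd3 (-0.22), mt-Co3 (-0.21) and mt-Rnr1 (-0.20) were at the lower end and mt-Co1 (0.17) and mt-Co2 (0.16) at the upper end. The median was -0.04, and -0.02 with copies added (range -0.20 to 0.14), beside -0.01 over all genes. With copies, mt-Co3 stood at -0.02, mt-Co2 at 0.01 and mt-Nd3 at -0.08, while mt-Rnr1 and mt-Co1 (0.14) stayed at the ends of the range.

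Scaling to spike-ins instead of TMM moved the median of the mitochondrial genes to -0.63 and that of all genes to -0.59. With spike-ins mt-Co1 stood at -0.42 and mt-Co2 at -0.43, so the sign of their ratios depends on the scaling. Spike-ins held the larger share of counts in replicate 2.

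**Figure D4:**
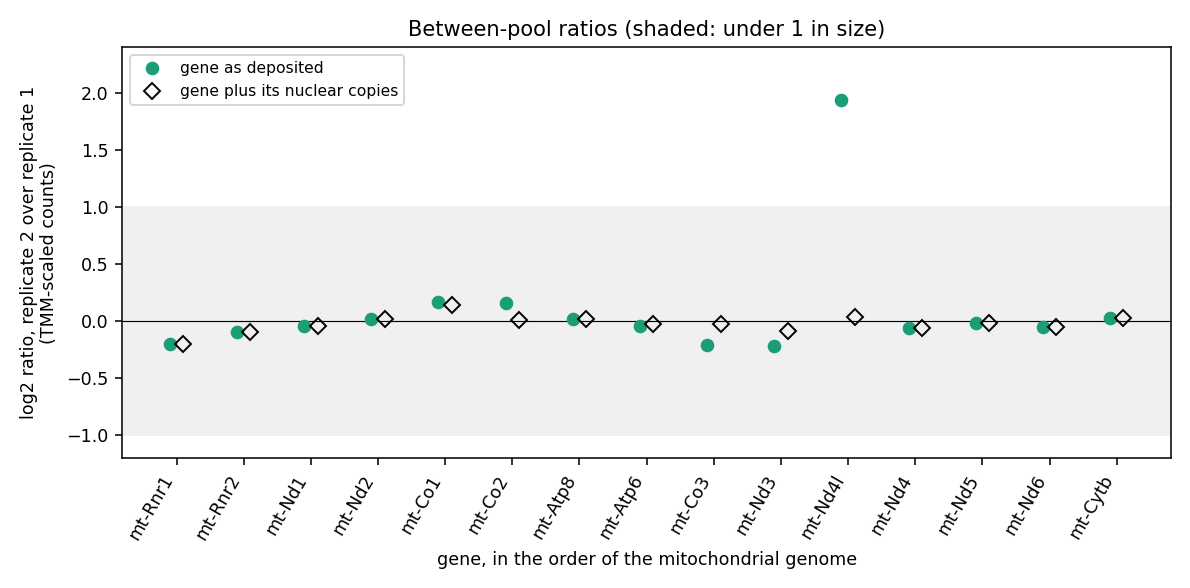
Log2 ratio of replicate 2 over replicate 1 for each mitochondrial gene with reads, in the order of the genome, as deposited (filled circles) and summed with nuclear copies (open diamonds). Shading marks ratios under 1 in size; mt-Nd4l as deposited lies at 1.94 and its sum with Gm10222 at 0.03.

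Nuclear genes that copy, transcribe and process the mitochondrial genome were all expressed, over a wide range of levels. All 18 genes for transcription and replication were at 1 TPM or more in each library (median 20.1 TPM). The single-strand binding protein gene Ssbp1 (134 ± 4.54 TPM, SD, n = 2), the DNA-packaging and transcription factor gene Tfam (85.1 ± 5.06) and Mterf3 of the termination factor family (63.2 ± 1.82) were highest, and Mterf1b lowest (2.93 ± 0.262). Polrmt, the mitochondrial RNA polymerase, named here after its value was seen, was at 26.6 ± 0.658 TPM. All 21 genes of RNA cleavage, stability and decay were expressed as well (median 32.9 TPM), from Slirp, an mRNA-stabilising partner of Lrpprc (253 ± 2.998), Hsd17b10, a subunit of the mitochondrial RNase P (192 ± 13.0), and Fastk (71.4 ± 6.35) down to Pde12, a poly(A)-removing enzyme (10.1 ± 0.884). Of rRNA and tRNA modification and assembly genes 17 of 17 were expressed (median 17.3 TPM), with the helicase gene Dhx30 (57.2 ± 1.73), the CCA-adding enzyme gene Trnt1 (54.1 ± 0.827) and the rRNA chaperone gene Eral1 (34.0 ± 1.51) highest and Nsun3, an RNA methyltransferase gene, lowest (5.28 ± 0.806).

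Nuclear partners of the mitochondrial subunits had list medians far above the median of nuclear protein-coding genes, which was 3.005 TPM. The 36 nuclear complex I genes had a median of 215 TPM, led by Ndufab1 (528 ± 47.4), Ndufc1 (527 ± 48.0) and Ndufb8 (425 ± 23.4), with Ndufb4 lowest (42.7 ± 2.90). For complex III the median of 9 genes was 369 TPM, with Uqcr10 (491 ± 21.6), Uqcr11 (406 ± 22.1) and Uqcrb (405 ± 22.6) highest and Uqcrc2 lowest (161 ± 17.1). Complex IV had a median of 555 TPM over 11 genes, with Cox6b1 (769 ± 17.2), Cox4i1 (689.9 ± 56.4) and Ndufa4 (684 ± 34.6) highest and Cox7b lowest (272 ± 28.5). ATP synthase had a median of 449 TPM over 15 genes, from the catalytic beta subunit gene Atp5b (1817 ± 135), Atp5a1 (799 ± 42.0) and the proton-ring gene Atp5g3 (772 ± 59.5) to Atp5l (128 ± 4.09).

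Mitochondrial mRNAs lay above the median of their nuclear partners in most cases. In ATP synthase, complex III and complex IV each mitochondrial mRNA had a higher mean TPM than each nuclear one, as deposited and with copies. In complex I the mitochondrial mRNAs spanned 35.2 ± 28.6 TPM (mt-Nd4l) to 2109 ± 97.1 TPM (mt-Nd1) as deposited and 323 ± 9.84 (mt-Nd5) to 2109 ± 97.1 with copies, so that with copies all 7 were above the nuclear median. Summed over subunits, the mitochondrial mRNAs reached 4589 ± 188 TPM for complex I, 2361 ± 23.5 for complex III, 3917 ± 22.7 for complex IV and 9703 ± 291 for ATP synthase. With copies the sums were 5996 ± 263 for complex I, 11584 ± 188 for complex IV and 10644 ± 274 for ATP synthase, so that complex IV moved from the third to the first place.

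**Figure D5:**
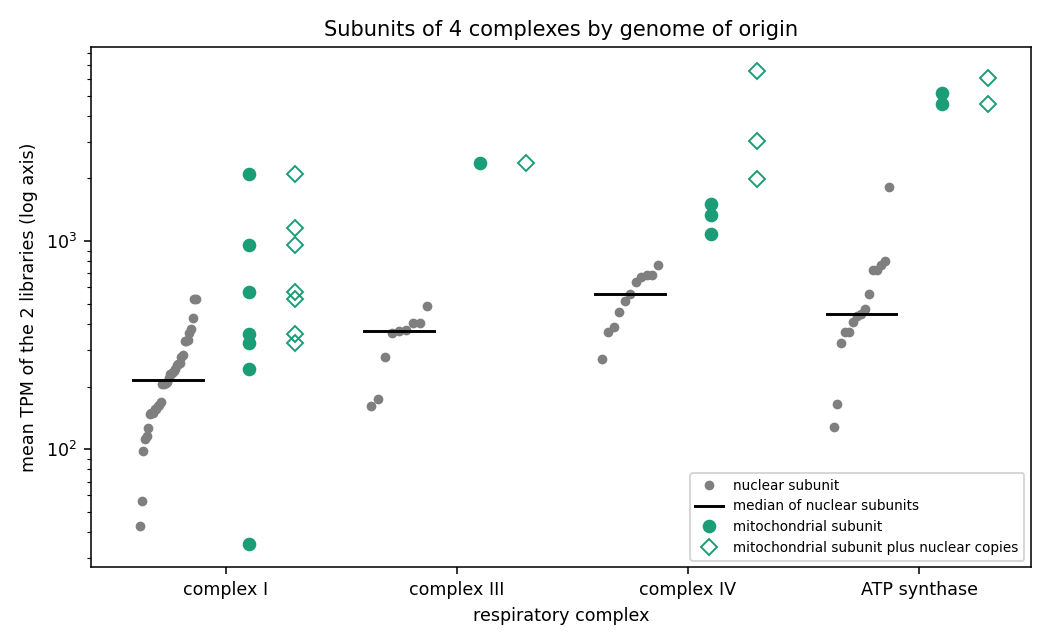
Mean TPM of both libraries (log axis) for nuclear subunits (grey points, bar at their median), mitochondrial subunits as deposited (filled circles) and mitochondrial subunits summed with nuclear copies (open diamonds) of 4 complexes. Mitochondrial mRNAs of complexes III and IV and ATP synthase lie above all nuclear partners, and those of complex I spread from 35.2 to 2109 TPM as deposited.

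No gene of the 7 nuclear lists had a between-pool log2 ratio of at least 1 in size, 0 of 127, beside 4.44% of all genes tested. Among genes with at least 1000 counts in each library, a range that holds most of the nuclear subunits, it was 0 of 6709. For the nuclear subunits the result is therefore no sign that they were more stable than other genes of like count. Some genes of mitochondrial DNA and RNA handling had fewer counts, such as Mterf1b with 98 and 92. No background of like count was computed for those, so the 0 of 127 does not measure their stability. Under TMM scaling 70 of the 71 nuclear subunits had a ratio below 0, the exception being Cox6b1 at 0.00, with list medians of -0.08 for complex I, -0.08 for complex III, -0.09 for complex IV and -0.06 for ATP synthase. Among genes of at least 1000 counts 53.3% were below 0. Of the mitochondrial genes 9 of 15 were below 0. The counts were 69 of 71 and 9 of 15 with DESeq2 size factors, 66 of 71 and 8 of 15 with total counts, and 71 of 71 and 14 of 15 with spike-ins. Erythroid markers had a median ratio of -0.15 and limb mesenchyme markers of 0.06, and their part in these small ratios was not tested. Of the cardiomyocyte markers Nppa, Myl3 and Myh6 were past 1 in size and lower in replicate 2, at 34, 23 and 112 counts in replicate 1 and 4, 3 and 28 in replicate 2.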

How the data were processed

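Total RNA of 2 pools of 1 group was analysed. Per the file headers, the authors quantified each library alone from transcriptome alignments to mm10 with annotation M4; the sources used here do not give the aligner, its version or whether strand was used. Deposited values were expected counts (estimated reads, fractional where reads were shared) and TPM, scaled to the same total over all entries with spike-ins. They also deposited posterior means, posterior SDs and TPM bounds. The deposited transcript tables, which add an isoform percent, had the same values for the 37 transcripts of these genes.

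Symbols and coordinates came from GENCODE M21 (GRCm38), which matched 42462 gene IDs and left 884 unmatched. Lengths in M21 equalled those of the tables for 37 of 37 mitochondrial genes and 14 of 15 copies. No genome was used, so copies were sought among M21 transcripts with BLAST+ 2.17.0 (at least 90% identity over 100 bases, word size 20) in place of the genome search first planned. Read positions are all stretches of 100 bases of a transcript.

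Counts were rounded for ratios and scaled with edgeR 4.0.16 TMM (R 4.3.3) with a prior count of 0.5. Ratios were taken for genes whose counts in the libraries summed to at least 20, and called at a log2 size of 1, with no p-value since there is 1 library on each side. DESeq2 1.42.0 size factors, total counts, spike-ins, other prior counts and filters, full length and posterior means were alternatives. Shares carry Wilson and ratios exact Clopper-Pearson intervals at 95%. Every mitochondrial gene is accounted for, and named besides were the 6 highest copies, the 3 highest and the lowest gene of each nuclear list, and members past a log2 ratio of 1. Other copies are named because their sequence bears on a result. The members and lists were chosen with earlier results of these data known. The labels call the pools biological replicates, and the spread given is that between these samples. The ratio step was tested on simulated data. No value column was left out for want of a sample.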

Additional observations from a re-analysis of the deposited data

How the results depend on the processing

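The mitochondrial share of gene counts, 1.23%, was 2.30% as a share of all TPM, 1.14% over all entries with spike-ins, 0.991% without mt-Rnr1 and mt-Rnr2 and 1.67% with nuclear copies added, each by construction. The count of genes past a log2 ratio of 1 was 1 under each scaling, prior count and filter tried and 0 when copies were summed, where mt-Nd4l was at 0.03. The median mRNA stood at 0.877 of the mean rRNA, at 1.22 with posterior means and at 1.60 with copies. For mt-Nd6 over the median heavy-strand mRNA the value was 0.296, with 0.232 from posterior means, 0.275 by full length and 0.174 with copies. Adding copies was chosen after seeing the data, and the cause of the other moves was not tested.

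Median bound width over other genes was 16% and 30.8% over all genes above 0 TPM, which adds genes with few counts. Leaving out each replicate in turn only returns the value of the other library, so it was no separate check. The values were shares of 1.23% to 1.23%, class ratios of 0.795 to 0.959, strand ratios of 0.295 to 0.297 and copy shares of 26.4% to 26.9%. A copy defined at 95% identity over 200 bases left the copy share of 26.7% within the spread between libraries. It could hardly move that share, as the 6 highest copies, with 99.98% and 99.97% of all counts on copies, also met it. The copy share was not computed from posterior mean counts. Over single genes, 74 ratios under an alternative kept their side of the threshold and 1, mt-Nd4l with its copy, did not. Directions were less stable: with spike-ins the ratios of mt-Nd2 (0.02 to -0.57), mt-Co1 (0.17 to -0.42), mt-Co2 (0.16 to -0.43), mt-Atp8 (0.02 to -0.56) and mt-Cytb (0.03 to -0.56) changed sign, and with total counts mt-Nd5 moved from -0.01 to 0.00. No paired analysis was possible because the labels give 1 group. mt-Nd4l rests on 83.5 and 257 counts, and its bounds were 221% and 185% wide, beside 47.8% and 28.9% for genes of like count.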
